A study of Mus musculus with 18 samples.

Results

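The Hox genes are the members of the 4 homeobox clusters Hoxa, Hoxb, Hoxc and Hoxd, taken here as every row of the gene tables whose symbol is one of these 4 prefixes followed by digits only. The rule found 39 genes among 23420 rows, with 11 in Hoxa, 10 in Hoxb, 9 in Hoxc and 9 in Hoxd. Antisense and microRNA rows of the clusters were not members. The genes were followed in bulk RNA-Seq of mouse embryonic lungs in 3 experiments, each with 3 control and 3 mutant libraries. In the Vangl1-2 experiment at E12.5dpc (embryonic days post coitum), control lungs were labelled Vangl1-/- and knockout lungs Vangl1-/-; Vangl2-/-, so that both groups carried the Vangl1 gene trap and differed in Vangl2, which had been deleted early and in all tissues by Sox2-Cre. In the Wnt5a-Dermo1-Cre experiment, also at E12.5dpc, controls were Wnt5af/+; Dermo1Cre and mutants Wnt5af/f; Dermo1Cre, and this Cre, knocked into Twist2, is active in the mesenchyme. In the Wnt5a-Sox9-Cre experiment at E13.5dpc, controls were Wnt5af/+; Sox9Cre and mutants Wnt5af/f; Sox9Cre, a Cre used for the epithelium. Both groups of each Wnt5a experiment thus carried the Cre, and their controls had 1 floxed allele.

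Hox genes encode homeodomain transcription factors that are transcribed in the order in which they lie along their cluster, low numbers at anterior levels of the body and high numbers at posterior levels. Genes with the same number in different clusters are paralogs with related functions. In the lung they are mainly genes of the mesenchyme, and the paralogs Hoxa5, Hoxb5 and Hoxc5 act together in branching and in mesenchymal Wnt signaling. Each mutant group was set beside its own controls to see which members of the profile differed, and the controls of both stages were set side by side.

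The DNA before the start is shown for the member with the highest level and for the paralogs of number 4, which shared a motif match in this window. For 22 of the 39 genes the RefSeq table on GRCm38.p6 held at least 1 window before a transcription start, 24 windows in all, and the 250 bases before the start were searched on both strands for AGGTCA (a retinoic acid receptor motif), TTTATG (a Cdx core) and TGATNNAT (a Hox-Pbx core). AGGTCA was found in 6 of the 24 Hox windows (25%) and 14% of all 32851 windows. TTTATG was found in 5 Hox windows (20.8%, beside 10.8%) and TGATNNAT in 4 (16.7%, beside 7.68%). These differences rest on few windows and were not tested. Besides paralogs of number 4, AGGTCA matched in Hoxd3, Hoxd8 and Hoxd10. All 3 paralogs of number 4 that had a window (Hoxb4, Hoxc4 and Hoxd4) held AGGTCA on the strand opposite to the one printed, where it appears as TGACCT, whereas the window of Hoxa5, the member with the highest level per length, held none of the 3. Capitals mark these matches, which describe letters and not binding. Hoxa5 is shown at chr6:52204588-52204837 on the minus strand, Hoxb4 at chr11:96318017-96318266 and Hoxd4 at chr2:74721728-74721977, both on the plus strand. The window of Hoxc4 overlaps an exon of a longer Hoxc4 transcript, and only 30 bases around its match are shown (chr15:103034237-103034266, plus strand).
Hoxa5: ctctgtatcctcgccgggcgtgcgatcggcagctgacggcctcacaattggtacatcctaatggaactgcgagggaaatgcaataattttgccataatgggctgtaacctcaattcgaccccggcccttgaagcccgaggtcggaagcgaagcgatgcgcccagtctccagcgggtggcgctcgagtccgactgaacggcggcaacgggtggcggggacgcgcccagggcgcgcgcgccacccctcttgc
Hoxb4: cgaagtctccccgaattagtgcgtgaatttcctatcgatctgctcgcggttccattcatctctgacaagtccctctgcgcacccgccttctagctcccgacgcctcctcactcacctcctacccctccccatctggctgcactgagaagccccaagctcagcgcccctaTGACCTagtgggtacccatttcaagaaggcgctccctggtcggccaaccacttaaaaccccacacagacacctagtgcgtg
Hoxd4: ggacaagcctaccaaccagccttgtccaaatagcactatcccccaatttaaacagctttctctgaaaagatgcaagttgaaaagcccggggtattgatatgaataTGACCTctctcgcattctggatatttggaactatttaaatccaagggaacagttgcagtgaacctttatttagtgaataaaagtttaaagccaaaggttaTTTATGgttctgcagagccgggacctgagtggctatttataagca
Hoxc4: ggcgctgccctgTGACCTacacagactgca
The match began 81 bases before the start in Hoxb4, 146 in Hoxc4 and 145 in Hoxd4. In Hoxd4 a TTTATG stood 45 bases before the start.

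The libraries held between 15945393 and 19814346 reads on genes. All 8 lung epithelium and all 8 lung mesenchyme markers were present in every group, the epithelial sums lying between 13260 and 15600 normalized counts (reads divided by the authors' size factor) and the mesenchymal sums between 25990 and 53380. Vangl2 stood at 277 to 406 normalized counts in Vangl1-2 controls and at 79.8 to 89.6 in knockouts, a log2 fold change of -1.96 that limma called (adjusted p = 0.0318). Vangl1, trapped in both groups, stood at 113 to 219 in controls and 239 to 274 in knockouts (adjusted p = 0.233), and at 409 to 508 in the Wnt5a experiments, whose size factors were computed in other tables. Wnt5a was at 430 to 489 in Dermo1-Cre controls and 230 to 436 in mutants, and at 426 to 473 in Sox9-Cre controls and 362 to 448 in mutants, so both mutant groups overlapped their controls and neither difference was called (adjusted p = 0.406 and 1). Control replicates 1 and 3 of the Vangl1-2 experiment stood apart: across 13437 genes the deviation of a library from the mean of its experiment had a Spearman correlation with exon length of -0.57 and -0.5 in them, against 0.3 in control replicate 2 and 0.37 to 0.51 in the knockouts. That correlation lay between -0.36 and 0.34 in the 12 libraries of the Wnt5a experiments.

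Reads lay mainly on the anterior and middle members of the Hoxa and Hoxb clusters. In bulk RNA, fewer cells of a type and less RNA per cell cannot be told apart. Levels between genes are compared in RPM, the reads of a gene scaled to the reads on all genes of its library, per kb of exon. Hoxa took between 46% and 50.6% of the summed Hox level of a library and Hoxb between 48.1% and 52.8%, whereas Hoxc took 0.819% to 2.37% and Hoxd 0.206% to 0.8%, and these ranges hold over all 18 libraries. Reads on Hox genes made up 0.067% to 0.0932% of a library. Paralog group 5 alone took 43.9% to 50% of the summed level, group 4 took 15.7% to 19%, and none of groups 10 to 13 took more than 0.0842%. Of the 23 members numbered 1 to 8, 20 passed the filter of 10 normalized counts in at least 3 of 6 libraries in at least 1 experiment, and of the 16 numbered 9 to 13 only Hoxb9 and Hoxd13 did. The remaining 17 members were tested in no experiment.

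**Figure D1:**
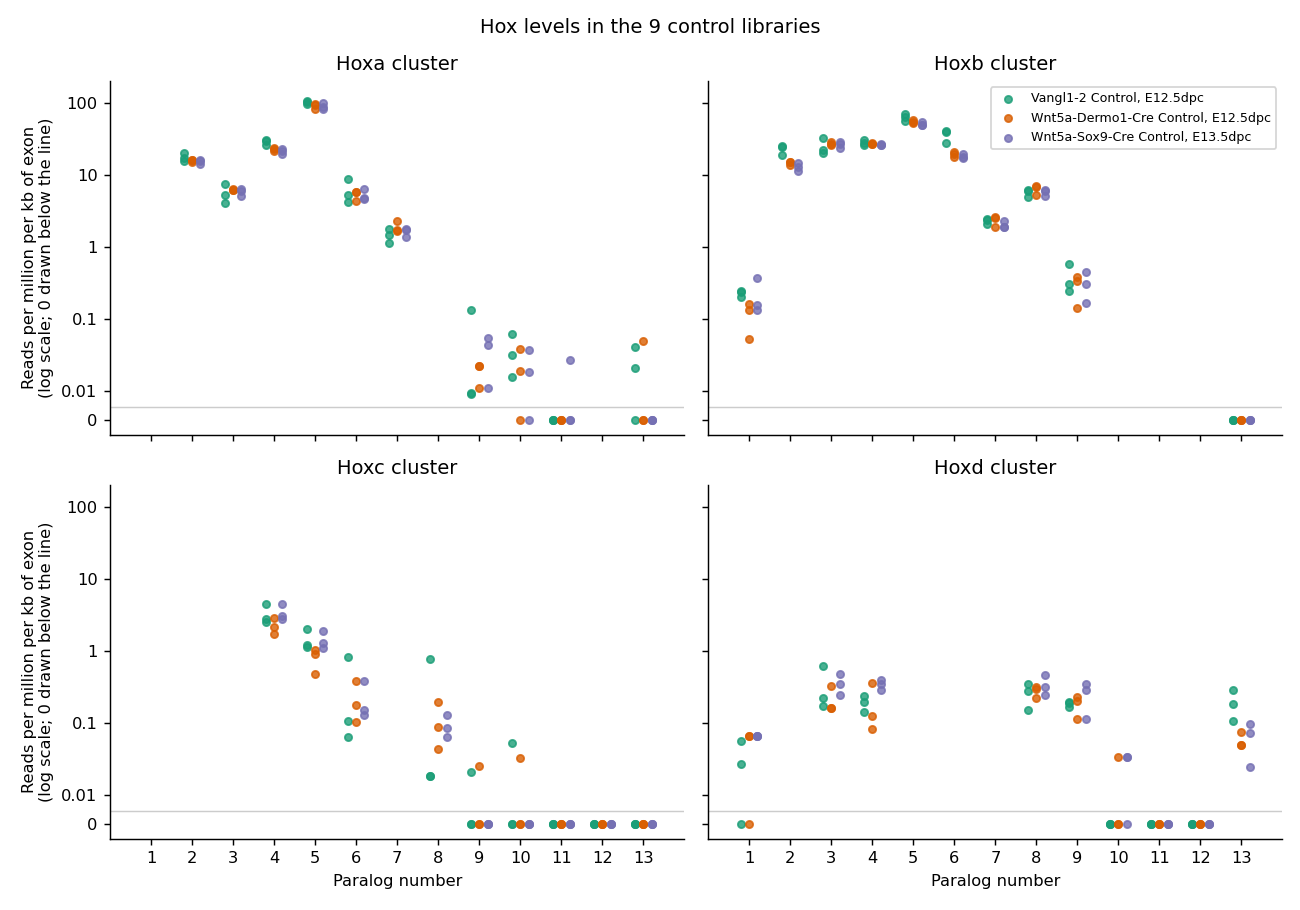
Level of the Hox genes in the 9 control libraries, as RPM per kb of exon on a log scale, against paralog number, with 1 panel per cluster and 1 point per library, colored by control group; values of 0 are drawn below the gray line. Hoxa5 (82.5 to 106) and Hoxb5 (48.9 to 68.8) lie above all other members, and the Hoxc and Hoxd members numbered 3 to 8 lie below the Hoxa and Hoxb members of the same number.

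Hoxa5 (chr6:52201754-52204587 on mm10, minus strand), which is required for lung and airway development, was the highest member. Its level in the 9 controls ran from 82.5 to 106 RPM per kb, with a median of 97. Hoxb5 (chr11:96303336-96306121) followed with 48.9 to 68.8 and a median of 54.9, and these ranges did not overlap with each other or with that of any other member. Hoxb4 (25.8 to 30.1), Hoxb3 (20.4 to 32.1), Hoxa4 (19.7 to 30) and Hoxb6 (17.2 to 40.4) came next, and their ranges overlapped, so that their order was not fixed by these libraries. Hoxa2, which patterns the hindbrain and the second pharyngeal arch, stood at 14.3 to 19.9 and Hoxb2 at 11.2 to 25. Exon lengths were the union of GENCODE exons, and transcripts that use only part of them would stand higher.

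In Hoxc the highest member was Hoxc4 (1.74 to 4.54), followed by Hoxc5 (0.483 to 2.04). Hoxc4 lies at chr15:103018934-103036852, and Hoxc5, whose annotated span of chr15:102967443-103017429 takes in Hoxc6 and Hoxc8, shares 5.4% of its exon bases with Hoxc10 and none with those 2 genes or Hoxc4. In Hoxd, on chromosome 2, no member reached a level of 1 on this scale. Its highest member by the median was Hoxd8, with 0.153 to 0.472, a range that Hoxd3 (0.163 to 0.626) and Hoxd4 (0.0843 to 0.395) overlapped. Hoxd3 and Hoxd4 share exons on 1 strand, 62.3% of the exon bases of Hoxd3 and 52.3% of those of Hoxd4 being shared with another gene, so their reads could not be assigned with certainty. The highest-numbered members to pass the filter in any experiment were Hoxa7, Hoxb9, Hoxc5 and Hoxd13, the last only in the Vangl1-2 experiment.

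Posterior members were at or near 0. Hoxc11, Hoxc12, Hoxc13 and Hoxd12 had 0 reads in all 18 libraries. A count of 0 allows up to 3 reads per library, for counting error only. Among the 11 members numbered 10 to 13 other than Hoxd13, the highest count in any library was 4 reads, in Hoxa10. Hoxd13, a gene known for the digits and the hindgut, was an exception with up to 14 reads in a library and 82 over all 18.

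The loss of Vangl2 was compared next. None of the 22 Hox genes tested passed an adjusted p of 0.05, and the smallest was 0.233. Of all 14303 genes, limma called 0.00699%, a single gene, Vangl2. An unadjusted p under 0.05 was reached by 2 Hox genes, Hoxb3 and Hoxa6, or 9.09% of those tested, against 20.5% of all genes. edgeR called 0 Hox genes and gave 1 an unadjusted p under 0.05, and DESeq2 called 0 and gave 2, but it left 23 of the 32 Hox genes it fitted without an adjusted p, Hoxa6, Hoxb7 and Hoxc5 among them, so that these could not be called. Of the 22, 11 were higher and 11 lower in knockouts, with a median log2 fold change of 0.024, beside -0.009 over all genes, whereas 18 were higher and 4 lower once each library's trend on exon length was removed.

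**Figure D2:**
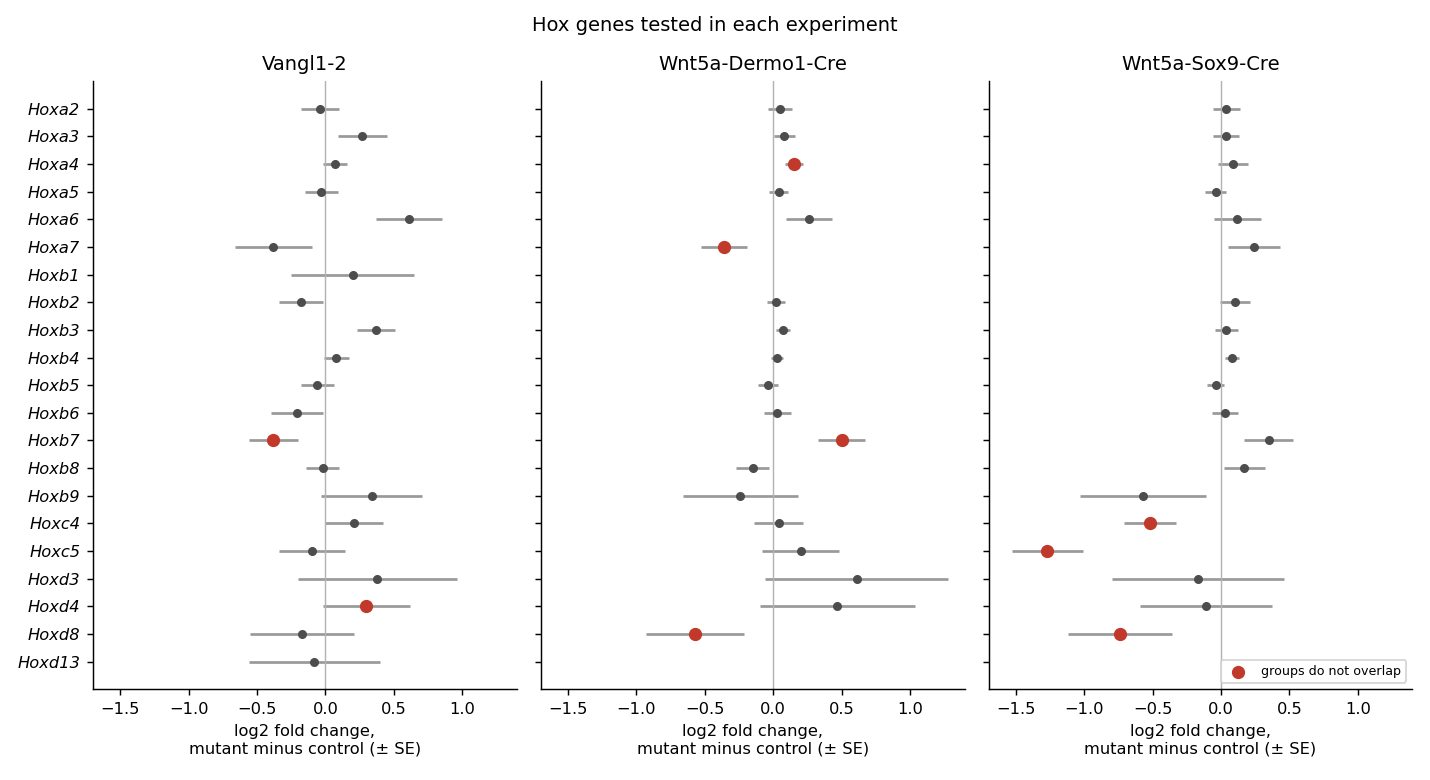
Log2 fold change, mutant minus control, with its standard error (bars) for the Hox genes tested in the 3 experiments, from limma on 3 libraries per group; red points mark genes whose control and mutant libraries do not overlap. No gene passed an adjusted p of 0.05; Hoxc5 in the Wnt5a-Sox9-Cre experiment, at -1.27, lies farthest from 0. Hoxb1 and Hoxd13 were tested in the Vangl1-2 experiment only.

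The 2 genes with the smallest p both had higher values in the knockouts. Hoxb3, an anterior gene of the hindbrain and pharyngeal arches, stood at 1876, 2524 and 1757 normalized counts in control replicates 1 to 3 and at 2646, 2760 and 2453 in the knockouts (log2 fold change 0.37 ± 0.14 SE, adjusted p = 0.233). Control replicate 2 lay within the knockouts, whereas replicates 1 and 3 lay below them. An antisense gene, Hoxb3os, overlaps 52.9% of the exon bases of Hoxb3, and the strand setting of the count is not given in the sources used here. Antisense genes also overlap 27.3% of the exon bases of Hoxb2 and 25.4% of those of Hoxa3. Hoxa6, a member of the middle group, stood at 91.92, 141.7 and 73.56 in controls and 175.1, 138.9 and 141.8 in knockouts (0.61 ± 0.24, adjusted p = 0.235). Its log2 fold change was 1.01 with the trend on exon length removed and 0.4 without control replicate 3. Hoxa3, which patterns the pharyngeal pouches, stood at 622.8, 830.3 and 497.1 against 743.7, 840.5 and 721.8 (0.27 ± 0.18, adjusted p = 0.38). In all 3 genes it was control replicate 2 that resembled the knockouts.

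Hoxb7 was the member whose values were lower in every knockout library, with 64.03, 67.1 and 76.72 in controls and 47.3, 55.18 and 57.12 in knockouts (-0.38 ± 0.18, adjusted p = 0.267). Its groups did not overlap, which 8.68% of all genes shared in this direction, and 1 Hox gene of 22 (4.55%) did. In the other direction Hoxd4 (named after its values were seen) was the only member whose groups did not overlap, against 13.6% of all genes, and its knockout values of 13.08 to 13.8 were just above the highest control at 13.05. With the trend on exon length removed, the log2 fold change of Hoxb7 was -0.09.

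The Hox5 paralogs overlapped between the groups. Hoxa5 stood at 3906, 3363 and 3894 in controls and 3931, 3903 and 3119 in knockouts, a log2 difference of -0.03 with a 95% interval of -0.31 to 0.25. Hoxb5 stood at 3774, 2865 and 3542 against 3329, 3281 and 3095 (-0.06, -0.33 to 0.21), and Hoxc5 at 70.23, 116.5 and 76.72 against 83.53, 94.6 and 64.01 (-0.1, -0.66 to 0.46). A difference of a size within these intervals could not be told apart from none.

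The other members with values in each library also overlapped. Hoxc4, the highest member of its cluster, stood at 126, 215.3 and 146.1 in controls and 163, 200 and 188.1 in knockouts (0.21 ± 0.21). Hoxd8 stood at 8.262, 17.71 and 15.76 against 9.057, 12.81 and 13.79. The posterior end of what was tested was set by Hoxb9, with 12.39, 27.96 and 15.76 against 18.11, 20.69 and 30.53, and Hoxd13, with 5.164, 8.387 and 14.71 against 10.06, 4.927 and 10.83. Hoxa7 stood at 82.62, 95.05 and 66.21 against 78.5, 72.92 and 40.37 (-0.38 ± 0.28). The log2 fold changes of Hoxa2, Hoxa4, Hoxb1, Hoxb2, Hoxb4, Hoxb6 and Hoxb8, lay between -0.21 (Hoxb6) and 0.2 (Hoxb1), with adjusted p from 0.489 to 0.935.

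The Vangl1-2 result depended on 1 library. Without control replicate 2, limma called 6 of the 22 Hox genes: Hoxa3, Hoxa6, Hoxb3 and Hoxc4 with higher and Hoxb2 and Hoxb6 with lower values in knockouts, while it called 6183 of all 14303 genes. In an alternative chosen after the data were seen, with that library left out and the trend on exon length removed, 5 Hox genes were called (Hoxa4, Hoxa6, Hoxb3, Hoxb4 and Hoxc4) and 3736 of all 13437 genes. In both fits the share of Hox genes called lay below that of all genes. With control replicates 1 and 3 left out instead, also chosen after the data were seen, 1 control remained. The median log2 fold change of the 22 was then 0.052, beside 0.011 over all genes. With the length trend removed in all 6 libraries, the median of the 22 was 0.216, beside 0.002 over all genes, and 0 were called.

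Control replicate 2 also carried reads from further along the Hoxc cluster. Hoxc8, a thoracic gene, had 40.07 normalized counts there, 1.033 and 1.051 in the other controls, and 7.045, 0 and 0 in the knockouts. Hoxc6 stood at 37.28 against 3.098 and 5.255 in the other controls and 6.898 to 15.1 in knockouts. Hoxa9 stood at 13.98 in the same library and at most at 5.912 elsewhere in the experiment. These 3 genes failed the filter and were chosen after their values were seen. The summed skeletal muscle markers of this library, at 41 normalized counts, were the highest of the experiment (5.032 to 19.97 in the other 5), and all 4 markers were present in the controls. Its mesenchymal sum of 53380 was close to the 53130 of knockout replicate 2. Their part in the Hox values was not tested.

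With Wnt5a targeted in the mesenchyme, 20 Hox genes were tested and none passed an adjusted p of 0.05 (smallest 0.406). Over all 14277 genes 0.014% were called. At an unadjusted p under 0.05 there was 1 Hox gene (5%), against 10.2% of all genes; edgeR and DESeq2 each called 0 and gave 1, with no adjusted p from DESeq2 for 10 of 33 Hox genes. The median log2 fold change of the 20 was 0.04 beside 0.001 over all genes, with 14 higher and 6 lower in mutants, and 14 of the 20 (70%) differed by less than 0.25 in either direction, beside 86.8% of all genes.

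Hoxb7 was the Hox gene with the smallest p. It stood at 47.1, 63.23 and 64.41 normalized counts in controls and at 86.72, 79.39 and 79.89 in mutants (0.5 ± 0.17, adjusted p = 0.406), and the groups did not overlap. Hoxa4 followed with 582.2, 613.2 and 541 in controls and 614.1, 638.1 and 670 in mutants (0.15 ± 0.066, adjusted p = 0.496), the lowest mutant lying just above the highest control. These were 2 of 20 members (10%) whose mutants all lay above the controls, beside 7.65% of all genes. Hoxa7 stood at 107.2, 77.28 and 78.28 in controls and 66.55, 62.52 and 72.9 in mutants (-0.36 ± 0.17, adjusted p = 0.508), and Hoxd8 at 10.02, 13.05 and 13.87 against 6.05, 8.932 and 8.987 (-0.57 ± 0.36, adjusted p = 0.613). Those 2 members (10%) lay below their controls in every mutant library, beside 7.92% of all genes, but Hoxd8 passed the filter through its controls alone, so the filter fixed its direction. An antisense gene, Hoxaas3, overlaps 20.4% of the exon bases of Hoxa7, and another, Gm29430, overlaps 16% of those of Hoxa4.

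The Hox5 genes were close to their controls. Hoxa5 stood at 2849, 2948 and 2478 in controls and 2968, 2674 and 2880 in mutants, a log2 difference of 0.04 (95% interval -0.11 to 0.2), and Hoxb5 at 2450, 2607 and 2306 against 2140, 2429 and 2619 (-0.04, -0.2 to 0.13). Hoxc5 stood at 24.05, 51.19 and 44.59 against 43.36, 38.7 and 49.93 (0.2, -0.44 to 0.83). The interval of Hoxc5 was wider than those of its paralogs, at much lower counts. Hoxc4 stood at 72.15, 90.33 and 115.9 against 89.75, 103.2 and 87.87 (0.04 ± 0.18), and Hoxb9 at 6.012, 16.06 and 13.87 against 10.08, 9.924 and 7.989 (-0.24 ± 0.42). Both overlapped between the groups. The log2 fold changes of Hoxa2, Hoxa3, Hoxa6, Hoxb2, Hoxb3, Hoxb4, Hoxb6 and Hoxb8 lay between -0.15 (Hoxb8) and 0.26 (Hoxa6).

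Markers of several cell types moved with the group in this experiment. All 6 neuron markers had higher values in mutants at an unadjusted p under 0.05, their sum was 376.4 to 695.6 in controls and 883.4 to 2130 in mutants, and none was at 0. Epithelial markers were lower (5 of 8 at an unadjusted p under 0.05, sums 14480 to 15290 against 13600 to 13930), and of the 8 mesenchymal markers 3 were lower and 0 higher at that level (sums 41480 to 49740 against 37610 to 42390). Regardless of p, 3 mesenchymal markers were higher and 5 lower, with a median log2 fold change of -0.04. The one with the smallest p was Twist2 (-0.72), into which this Cre is knocked. All 8 cardiomyocyte markers had lower values, with a median log2 fold change of -1.34 and 0 at that level (sums 1260 to 17860 against 776.9 to 3742). All 3 liver markers tested had lower values, 2 at that level (sums 128.8 to 290.6 against 65.5 to 128.1). Hoxb7 had its highest value, 86.72, in mutant replicate 1, the mutant library with the lowest neuron sum. The part of these cell types in the Hox values was not tested.

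With Wnt5a targeted by Sox9-Cre, the Hox genes with the smallest p were both in Hoxc and both had lower values in mutants. None of the 20 Hox genes tested passed an adjusted p of 0.05, and neither did any of 14293 genes (0%), of which 3.9% had an unadjusted p under 0.05. Among the Hox genes 2 did (10%), Hoxc5 and Hoxc4, with adjusted p = 1 for both. edgeR called 0 and gave 2, with an adjusted p of 0.999 for Hoxc5. DESeq2 called 0 and gave 3, with an adjusted p of 0.0985 for Hoxc5 and none for 9 of 32 Hox genes. The median log2 fold change of the 20 was 0.037, beside 0.001 over all genes, with 11 higher and 9 lower, and 15 of them (75%) differed by less than 0.25, beside 88.6% of all genes.

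Hoxc5 stood at 94.16, 64.72 and 54.87 normalized counts in controls and at 23.42, 36.21 and 26.65 in mutants. The groups did not overlap, and the log2 fold change was -1.27 ± 0.26 SE (95% interval -1.85 to -0.68, unadjusted p = 0.000976 by limma). Hoxc4, its neighbor on the cluster, stood at 184.3, 129.4 and 113.7 in controls and 110.3, 85.5 and 96.36 in mutants (-0.52 ± 0.19, unadjusted p = 0.0244). Control replicate 1 was the highest library for both, and without it the log2 fold changes were -1.05 and -0.32. Together with Hoxd8 (13.88, 10.95 and 20.95 against 10.74, 9.053 and 6.151, -0.74 ± 0.38), 3 of the 20 members (15%) lay below their controls in every mutant library, beside 4.36% of all genes, and 0 lay above, beside 4.42%. Hoxd8 passed the filter through its controls, because among its mutants only replicate 1 (10.74) reached the filter's count. The 15% thus includes a gene whose testing depended on the group with the higher values. Hoxb7, the third by p, stood at 46.58, 57.75 and 46.89 in controls and 54.65, 66.39 and 72.78 in mutants (0.35 ± 0.18).

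The 2 other Hoxc genes with reads in this experiment also had lower means in the mutants, at counts too low for the test. Hoxc6 had 15, 6 and 5 reads in controls and 1, 6 and 2 in mutants, and Hoxc8 had 6, 3 and 4 in controls and 0, 1 and 0 in mutants. Both were chosen after their values were seen. With no filter on low values, limma gave an unadjusted p of 0.0471 for Hoxc6 and 0.00149 for Hoxc8, with adjusted p = 1 and 0.88. At that setting 5 of 32 Hox genes had an unadjusted p under 0.05, beside 754 of all 18880 genes. The pattern was not confined to Hoxc. Hoxd1 also lay below its controls in every mutant library, with 2 reads in each control and 1, 0 and 0 in mutants. Hoxc8 had 2, 9 and 4 reads in the Dermo1-Cre controls and 0 in all 3 mutants, where Hoxc4 and Hoxc5 overlapped between the groups, and the adjusted p without a filter was 0.237. Further along the cluster, Hoxc9 to Hoxc13 had no reads in either group of the Sox9-Cre experiment.

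**Figure D3:**
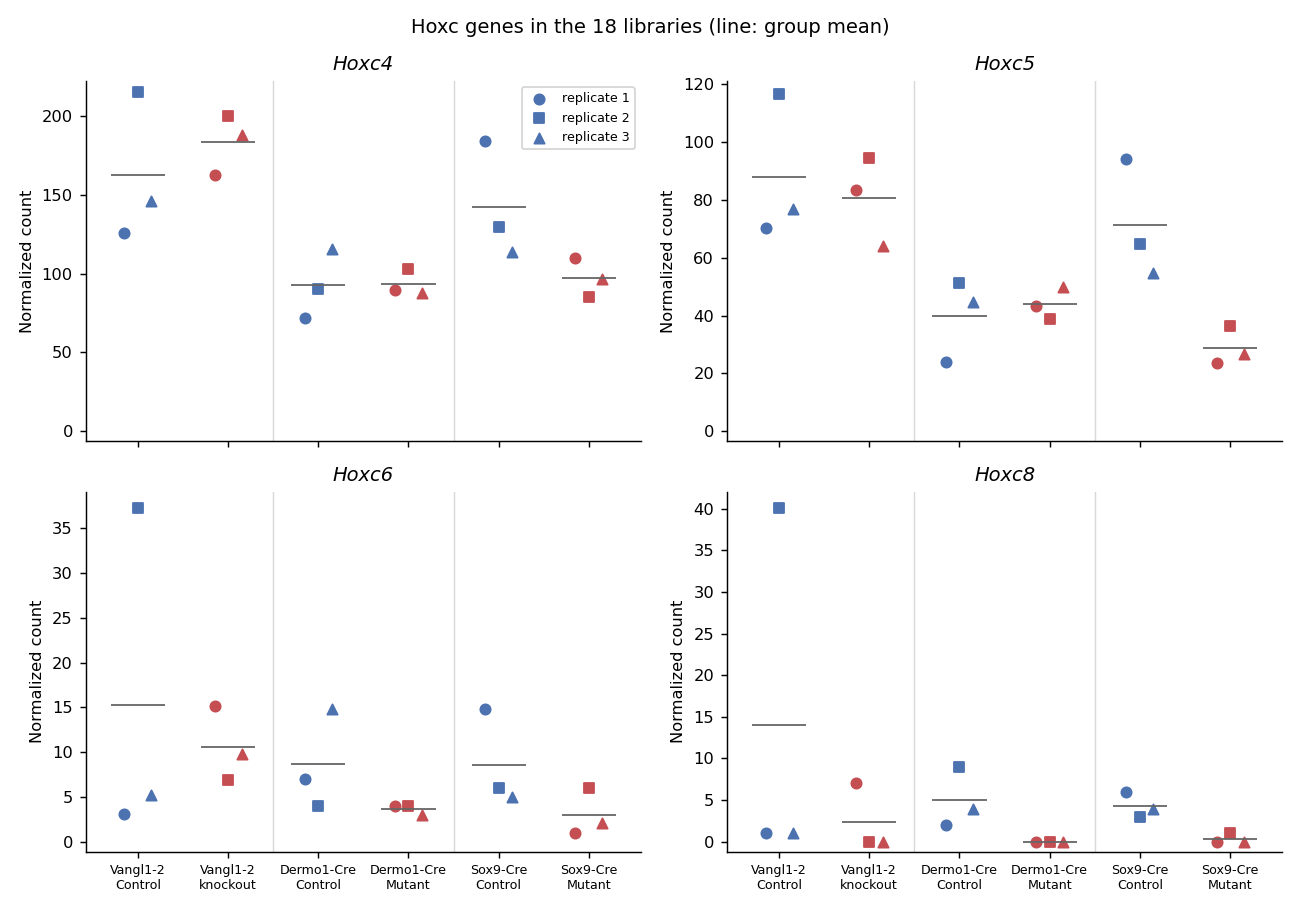
Normalized counts of Hoxc4, Hoxc5, Hoxc6 and Hoxc8 in the 18 libraries, with controls in blue and mutants in red; symbols give the replicate number and horizontal lines the group means (n = 3). In the Wnt5a-Sox9-Cre experiment the mutants of Hoxc4, Hoxc5 and Hoxc8 lie below all 3 controls, and Vangl1-2 control replicate 2 is the highest library of all 4 genes.

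The makeup of the Sox9-Cre libraries differed as well. The summed cardiomyocyte markers were 4539 to 16260 in controls and 945.1 to 4909 in mutants, 6 of 8 being lower at an unadjusted p under 0.05, and none was at 0. Neuron markers summed to 1094 to 1557 in controls and to 1572, 465.7 and 527.9 in mutant replicates 1 to 3. Of the 4 cartilage markers 3 were tested and all were higher in mutants, 2 at an unadjusted p under 0.05 (sums 1735 to 2123 against 1948 to 2782, with Matn1 at 0 in both groups). Of the 4 liver markers 2 were tested and both were lower, 1 of them, Alb, at an unadjusted p under 0.05 (sums 103.5 to 357.8 against 50.75 to 117.7). Control replicate 1, the highest library for Hoxc4 and Hoxc5, also had the highest liver sum, 357.8, and the highest mesenchymal sum, 52480, against 38610 to 45890 in the other 5. Marker by marker the mesenchymal list did not follow its sum. Of its 8 markers 7 had higher values in mutants and 1, Col1a1 (-0.33), lower values, with a median log2 fold change of 0.04. Mutant replicate 1, with the highest neuron sum and a cardiomyocyte sum of 4909 within the range of the controls, had the lowest Hoxc5 value of all 6 libraries. Without mutant replicate 1, the log2 fold change of Hoxc5 was -1.13 with an adjusted p of 0.184, and leaving out each of the other libraries gave 0.895 to 1. The part of these cells in the Hoxc values was not tested.

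The other paralogs of number 5 overlapped between the groups. Hoxa5 stood at 2654, 3050 and 2506 in controls and 2554, 2729 and 2668 in mutants (-0.04, 95% interval -0.21 to 0.13), and Hoxb5 at 2201, 2487 and 2245 against 2209, 2354 and 2170 (-0.04, -0.18 to 0.1). The intervals of both lie apart from that of Hoxc5, but Hoxc5 is singled out here as the Hox gene with the smallest p. The difference between the paralogs was not tested. Hoxa7 stood at 64.42, 81.64 and 81.8 against 83.93, 114.7 and 74.83 (0.24 ± 0.19), and Hoxb9 at 12.88, 6.969 and 18.95 against 5.856, 7.041 and 11.28 (-0.57 ± 0.46). Hoxa2, Hoxa3, Hoxa4, Hoxa6, Hoxb2, Hoxb3, Hoxb4, Hoxb6 and Hoxb8 had log2 fold changes between 0.03 (Hoxb6) and 0.17 (Hoxb8).

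The highest values of Hoxd3 and Hoxd4 lay in single libraries of both Wnt5a experiments. Hoxd3 stood at 74.43 normalized counts in Dermo1-Cre mutant replicate 2 and at 7.989 to 21.8 in the other 5 libraries of that experiment, and at 66.36 in Sox9-Cre mutant replicate 1 against 10.25 to 32.71 in the other 5. Hoxd4 stood at 18.86 and 34.16 in the same 2 libraries and at no more than 16.84 and 18.83 in the rest. The summed skeletal muscle markers Myod1, Myog, Myf5 and Pax7 were 391 and 323 in these 2 libraries and 12.3 to 117 in the other 10 of the Wnt5a experiments. In the Vangl1-2 experiment, by contrast, Hoxd3 reached 57.12 in knockout replicate 3 with a muscle sum of 12.8. The part of muscle tissue in the Hoxd3 and Hoxd4 values was not tested, and these genes were chosen after their values were seen. Left out of the fit, mutant replicate 2 of the Dermo1-Cre experiment turned the log2 fold change of Hoxd3 from 0.61 to -0.26.

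**Figure D4:**
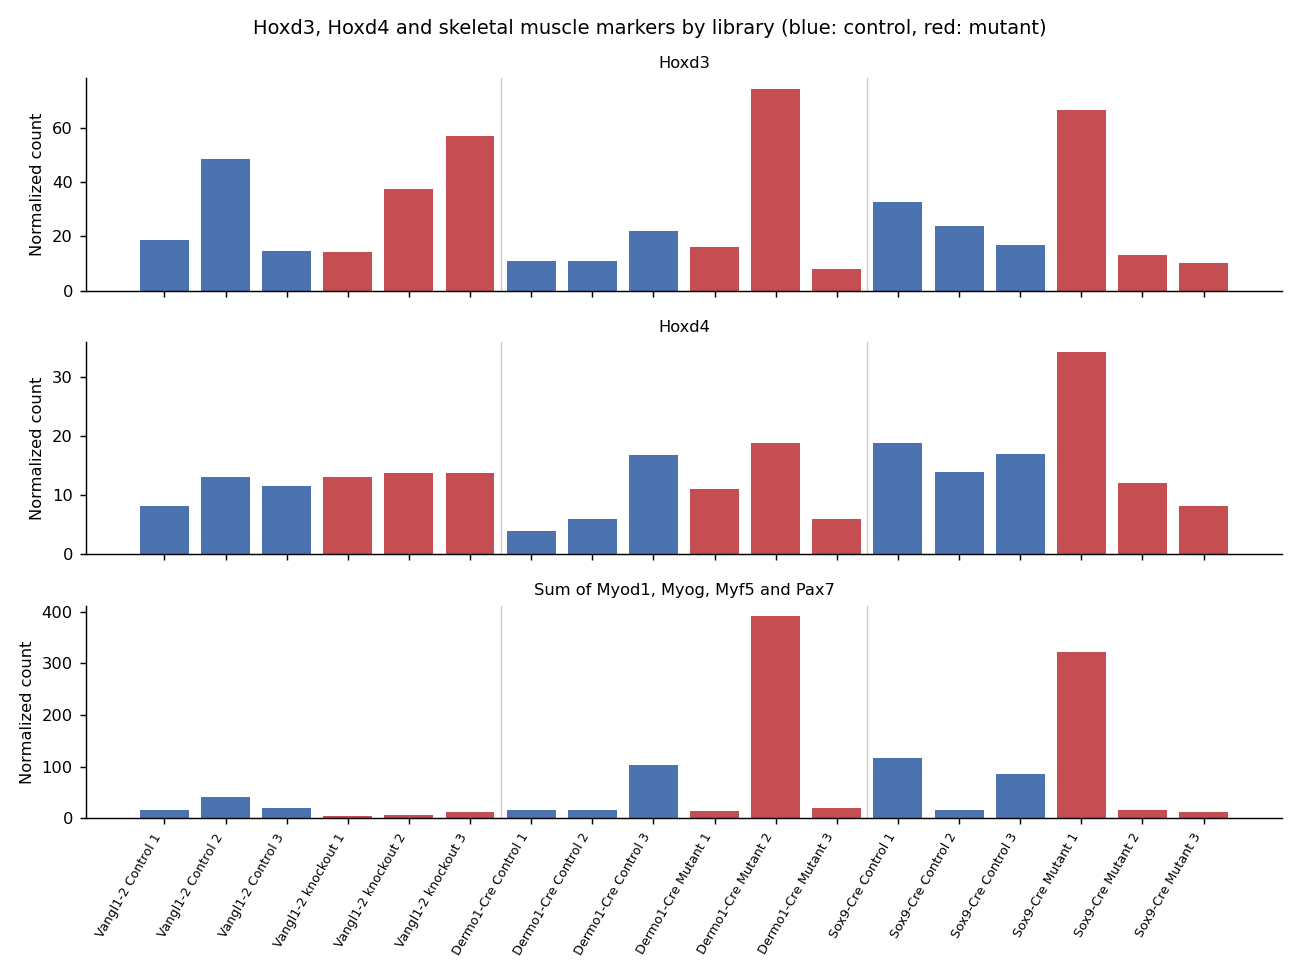
Normalized counts of Hoxd3 and Hoxd4 and the sum of 4 skeletal muscle markers in each of the 18 libraries, with controls in blue and mutants in red. Dermo1-Cre mutant replicate 2 and Sox9-Cre mutant replicate 1 have the highest bars of the Wnt5a experiments in all 3 panels.

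The controls of both stages were set side by side in RPM, with no test, because the tables were normalized separately and stage, Cre line and experiment cannot be told apart. Of 20 Hox genes with at least 10 reads in 3 of the 6 libraries, 1 (5%) was higher in every Sox9-Cre control at E13.5dpc than in every Dermo1-Cre control at E12.5dpc, beside 8.11% of all genes, and 0 were lower, beside 5.62%. That member was Hoxc5, at 3.39 to 5.83 RPM at E13.5dpc and 1.49 to 3.17 at E12.5dpc, a log2 ratio of 0.82. These Sox9-Cre controls are the same libraries that the Sox9-Cre mutants were compared with. The median log2 ratio of the 20 was -0.04, beside 0.01 over all genes. Hoxc5 stayed apart when any 1 of the 6 libraries was left out, but the count of members whose groups did not overlap was then 5 without Dermo1-Cre control replicate 3 (beside 30.1% of all genes in either direction), 3 without its replicate 1 (22.2%), and 3, 4 and 3 without Sox9-Cre control replicates 1, 2 and 3 (23.2%, 23.3% and 24%). With all 6 libraries that share was 13.7%, so the counts did not stand above the shares of all genes.

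The Vangl1-2 and the Dermo1-Cre controls, both at E12.5dpc, differed in genotype and experiment, which cannot be told apart. Between these groups 5 of 20 members (25%) were higher in every Vangl1-2 control, beside 18.2% of all genes. None was lower (0, beside 17.4%). Among them, Hoxa4, Hoxb2, Hoxb6 and Hoxc5 had log2 ratios of 0.33, 0.63, 0.89 and 0.87. Hoxc5 stood at 3.56 to 6.31 RPM in the Vangl1-2 controls, overlapping the Sox9-Cre controls, so that the Dermo1-Cre controls were the low group among the 3. Hoxb6 stood at 54.1 to 79.4 in Vangl1-2 controls and at 34.5 to 40.6 and 33.7 to 38.1 in the Dermo1-Cre and Sox9-Cre controls. Its values in Vangl1-2 control replicates 1 and 3, which stood apart on exon length, were 79.4 and 76.1, and replicate 2 had 54.1. The part of the length trend in these values was not tested. Hoxa5 overlapped among all 3 control groups (182 to 198, 155 to 182 and 155 to 188), as did Hoxb4 (66.8 to 77.2, 68.4 to 70.2 and 66.1 to 69.9).

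**Figure D5:**
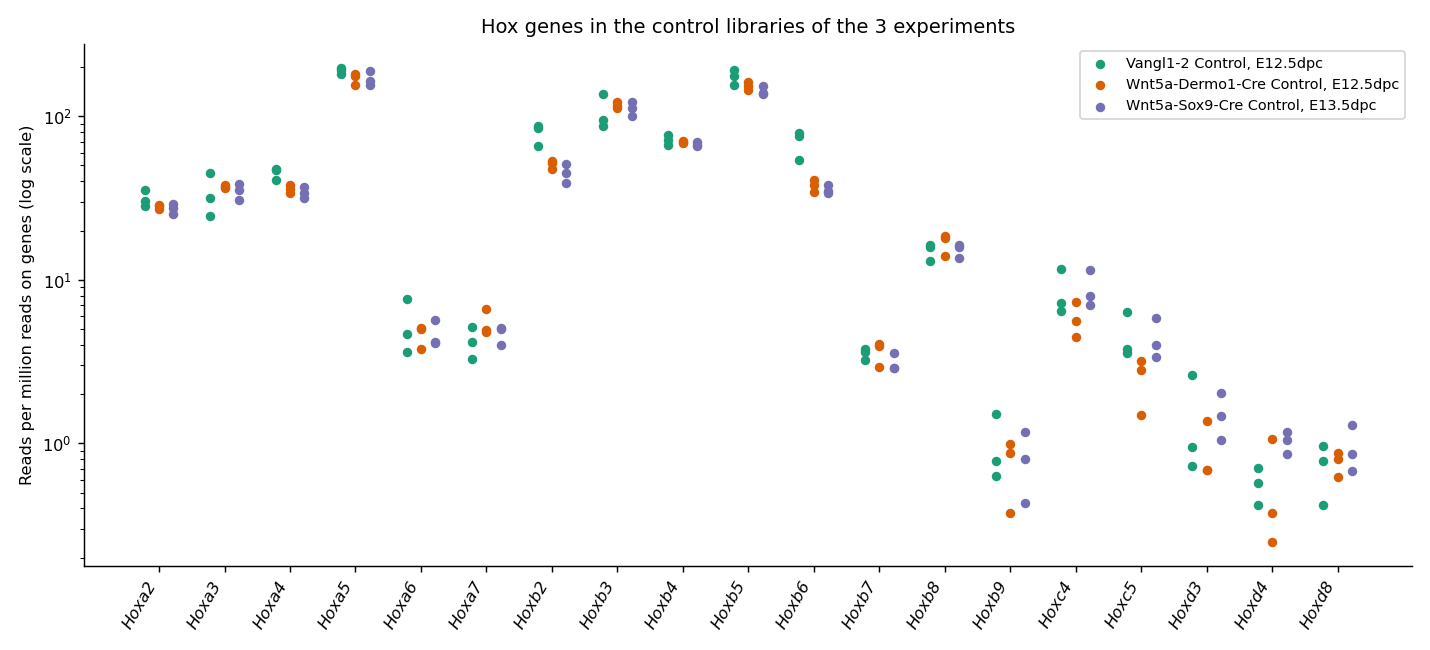
Level in RPM, on a log scale, of Hox genes that passed the filter, in the 9 control libraries, colored by experiment and stage. Hoxc5 is the gene whose Sox9-Cre controls (E13.5dpc) all lie above the Dermo1-Cre controls (E12.5dpc), and Hoxb2 and Hoxb6 are higher in the Vangl1-2 controls than in both other groups.

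Genes that act with, above or below the Hox genes were counted from fixed lists, and no list held a gene with an adjusted p under 0.05 in any experiment. At an unadjusted p under 0.05, 12% of all genes were higher and 8.56% lower in Vangl1-2 knockouts, 5.42% higher and 4.76% lower in Dermo1-Cre mutants, and 1.08% higher and 2.81% lower in Sox9-Cre mutants, and the counts of each list are to be read against these shares. All 9 TALE cofactors, the Pbx, Meis and Pknox proteins that bind DNA with Hox proteins, were tested. At an unadjusted p under 0.05, 1 was higher in Vangl1-2 knockouts and 1 lower in Dermo1-Cre mutants (Pknox2, -0.33, adjusted p = 0.406). In Sox9-Cre mutants 0 were higher and 0 lower at that level. Of 16 Polycomb genes, which keep Hox genes silent, 2 were higher in Vangl1-2 knockouts (Suz12, 0.26, and Jarid2, 0.3), 1 in Dermo1-Cre mutants (Eed, 0.15) and 0 in Sox9-Cre mutants at that level. Of the Trithorax genes and H3K27 demethylases, which keep Hox genes active, 6 of 8 listed names were in the tables and tested, and Kdm6a (0.61) and Kdm6b (0.64) were higher in Vangl1-2 knockouts at an unadjusted p under 0.05 and Kdm6b lower in Dermo1-Cre mutants (-0.14).

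Of 13 genes of Cdx factors and retinoic acid signaling, which set Hox expression in the embryo, 8 were tested. At an unadjusted p under 0.05, 2 were higher and 1 lower in Vangl1-2 knockouts, and likewise 2 and 1 in Dermo1-Cre mutants. In Sox9-Cre mutants 0 were higher and 1 lower. Crabp1, a retinoic acid binding protein, had a log2 fold change of -1.62 and Cyp26b1, which degrades retinoic acid, one of 0.72 in the Vangl1-2 experiment (adjusted p = 0.233 for both). In the Dermo1-Cre experiment Rdh10 and Rara stood at 0.15 and -0.18 (adjusted p = 0.361 and 0.367), and in the Sox9-Cre experiment Aldh1a2, the enzyme that makes retinoic acid in the mesenchyme, stood at -0.18 (adjusted p = 1). The 8 genes that follow Hox5 activity in lung mesenchyme had a median log2 fold change of 0.24 in the Vangl1-2 experiment, -0.03 with Dermo1-Cre and 0.03 with Sox9-Cre, beside medians of -0.009, 0.001 and 0.001 over all genes. In the Vangl1-2 experiment 4 of them were higher at an unadjusted p under 0.05, beside 12% of all genes, among them Fgf10 (0.64) and Lef1 (0.27), both with adjusted p = 0.233. The 8 lung mesenchyme markers had a median of 0.23 there, with 7 higher and 1 lower, and 3 higher and 1 lower at an unadjusted p under 0.05. Fgf10, Tbx4, Tbx5 and Wnt2 are in both lists, so the medians of these lists are not independent. The part of the mesenchyme and of the length trend of control replicates 1 and 3 in these values was not tested.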

How the data were processed

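Bulk RNA-Seq of 18 embryonic lung libraries in 3 experiments was analysed from 3 tables, each with 6 libraries. The submitters' notes name Trim Galore, HISAT2, featureCounts, DESeq2 and mm10; versions, strand setting and embryos per library are not given in the sources used here. The deposited values are a signal, gene counts that the authors divided by 1 size factor per library within each table (0.952 to 1.07). Every value was a whole multiple of 1 step (largest deviation 3.7e-05 reads, 100% of values within 0.1 reads), so whole reads were recovered. The tables also hold mean, log2 fold change and p-value columns of the authors' own comparison, which were not used.

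Genes that reached 10 normalized counts in 3 or more libraries of a table were tested with limma (version 3.58.1, R 4.3.3) on log2(value + 1) with a mean-variance trend, mutant against control within each table, two-sided, with Benjamini-Hochberg adjustment over all genes tested and a threshold of 0.05. A fold change on this scale understates the change of low genes. edgeR (4.0.16, quasi-likelihood test) and DESeq2 (1.42.0) on recovered reads, other scalings, filters and pseudocounts, a replicate block, removal of each library's trend on exon length and leaving out each library were alternatives. Replicates are separate samples in the labels; whether they came from separate embryos is not stated, so p-values measure the spread between these samples. Exon lengths, coordinates and overlaps came from GENCODE M21 on GRCm38 (mm10), which matched 92.9% of 23418 distinct names and all 39 Hox genes. Promoter windows were from RefSeq. Values of 1 member and 1 listed gene are not reported here, though counts and medians include them.

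Values per library are given for the highest member per length in each cluster, the Hox5 genes, the 4 Hox genes with the smallest unadjusted p in each experiment, non-overlapping members between control stages, and the highest-numbered member that passed the filter. Members, lists and rules were chosen with earlier results of these data known. The procedure was tested on simulated data. Same-numbered samples had correlations of their deviations between -0.22 and 0.3, so numbers did not pair the samples.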

Additional observations from a re-analysis of the deposited data

How the results depend on the processing

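No Hox gene was called in any experiment under edgeR, DESeq2, RPM scaling, either filter change, either pseudocount, no variance trend, the length trend removed, the replicate block or the block with the length trend removed (0 in each), but DESeq2 gave no adjusted p for 23 of 32, 10 of 33 and 9 of 32 Hox genes (Vangl1-2, then Dermo1-Cre, then Sox9-Cre), which could not be called. Leaving out 1 library gave 0 to 6 called in the Vangl1-2 experiment and 0 throughout in both Wnt5a experiments. The 6 of 22, without control replicate 2, stood beside a larger share of all genes, 6183 of 14303. Chosen after seeing the data, that library left out with the length trend removed gave 5 of 22, beside a larger share of all genes, 3736 of 13437. Also chosen then, control replicates 1 and 3 left out gave a median log2 fold change of the 22 of 0.052, from a lone control. The replicate numbers were not taken as pairs. With the replicate block 2, 1 and 2 Hox genes had an unadjusted p under 0.05, the same counts as without it.

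Among the named genes, signs turned for Hoxa5, Hoxb5 and Hoxc5, whose differences were near 0, and, under the alternatives chosen after seeing the data, for Hoxb7 and Hoxa3. In the Vangl1-2 experiment Hoxa5 went to 0 under RPM scaling, to 0.21 with the length trend removed, with or without the block, to 0.25 with control replicate 2 also left out and to 0.11 without control replicates 1 and 3. Hoxb5 went to 0.08 with the length trend removed, to 0.03 with control replicate 2 also left out and to 0.17 without control replicates 1 and 3. Hoxc5 went to 0.01 and 0.28, Hoxb7 to 0.02 with control replicate 2 left out and the trend removed, and Hoxa3 to -0.11 without control replicates 1 and 3. Leaving out 1 library gave -0.1 to 0.08 for Hoxa5, -0.18 to 0.02 for Hoxb5 and -0.24 to 0.12 for Hoxc5 there, -0.03 to 0.09, -0.1 to 0.04 and -0.12 to 0.41 in the Dermo1-Cre experiment, and for Hoxa5 and Hoxb5 -0.1 to 0.04 and -0.08 to 0.01 in the Sox9-Cre experiment. The cause was not tested.

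Between control stages the count of non-overlapping Hox genes was 1, and 5 with Vangl1-2 controls in place of Dermo1-Cre controls (Hoxa4, Hoxb2, Hoxb5, Hoxb6 and Hoxd4, without Hoxc5; 21 were tested, and 38.5% of all genes did not overlap). Leaving out 1 library gave 1 to 5, 5 without Dermo1-Cre control replicate 3, 3 without its replicate 1, and 3, 4 and 3 without Sox9-Cre control replicates 1 to 3. Depths of 15945393 to 19814346 reads per library left the members under 10 normalized counts untested.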

Other observations

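Other rows of the tables lie in the Hox clusters but were not members. Hotair, a long noncoding RNA between Hoxc11 and Hoxc12, had 0 reads in all 18 libraries, as had Mir10b in Hoxd and Mir196a-2 in Hoxc, which allows up to 3 reads per library. Mir10a, the row of a microRNA in Hoxb between Hoxb4 and Hoxb5, had 1 to 9 reads in each of the 18 libraries, and Mir196a-1, next to Hoxb9, had 0 to 7. Mir196b in Hoxa had a read in 4 libraries and at most 2, and Hoxa11as had 1 read in all.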
